A study of Rattus norvegicus with 4 samples.

Results

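RNA-Seq data of whole carotid bodies (CBs) were examined for 10 cholinergic genes, chosen by gene symbol from the 32883 genes of the count table. These were the genes for acetylcholine synthesis, storage and breakdown (Chat, Slc18a3, Slc5a7, Ache), 5 nicotinic receptor subunits (Chrna3, Chrna4, Chrna7, Chrnb2, Chrnb4) and the muscarinic receptor Chrm2, and all 10 had a single entry in the table with no fractional counts. The CB lies where the common carotid artery divides, and its glomus cells respond to a fall in arterial oxygen. The question was which of these genes changed between an age of low and an age of mature sensitivity to hypoxia. Libraries came from Sprague Dawley rats at postnatal day 5 (neonates, 2 libraries) and day 21 (adults, 2 libraries), with no treatment or genetic change named at either age. By the sample labels each library pooled the CBs of 6 pups or 3 adults. The paper's methods describe larger pools and a further replicate per age, which was not analysed here. Part of each litter was raised to the later age and both sexes were included, but which litters or sexes entered a library was not given in the sources used here.

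Acetylcholine is made from choline by choline acetyltransferase (Chat), packed into vesicles by the vesicular transporter Slc18a3 and broken down outside the cell by acetylcholinesterase (Ache), and the high-affinity transporter Slc5a7 returns choline to the terminal. Nicotinic receptors are ion channels of several subunits that let cations into the cell, whereas muscarinic receptors such as Chrm2 act through G proteins. In the CB, acetylcholine is regarded as a transmitter between glomus cells and the sensory nerve, and nicotinic receptors are known on the nerve endings, on glomus cells and on sympathetic neurons. Chrna3 and Chrnb4 form the usual receptor of autonomic ganglia, Chrna4 and Chrnb2 that of many brain neurons, and the Chrna7 subunit forms channels by itself with a high permeability to calcium.

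Estimated counts summed to 39476110 and 38506468 in neonate replicates 1 and 2 and to 37778975 and 36286191 in adult replicates 1 and 2. A count of 3, taken as the floor of detection, corresponded to between 0.0760 and 0.0827 CPM (counts scaled to the library total), and this floor covers counting error only. Levels are given as CPM of the deposited counts, without a correction for transcript length, and are therefore compared between ages for a gene and not between genes. Fold changes are neonate over adult and come from edgeR after TMM normalization, so that values under 0 on the log2 scale are those of genes higher in adults. They are given ± standard error (SE), with p-values from the quasi-likelihood test adjusted by the method of Benjamini and Hochberg over all genes. TMM factors were 0.902 and 0.935 in neonates and 1.08 and 1.10 in adults, so that a CPM ratio is shifted toward adults relative to the fold change of the fit.

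The CB label was checked against marker genes. Ddc, an enzyme of dopamine synthesis that took the most counts of the 12 glomus cell markers on average over the 4 libraries, though not in neonate replicate 1, had 1446 and 1352 CPM in neonates and 1546 and 1379 CPM in adults. The 12 markers summed to 6310 and 5219 CPM in neonates and to 6874 and 5770 CPM in adults. Adult replicate 1 was above adult replicate 2 for 12 of the 12, with a median ratio of 1.19, against 44.7% of all genes tested. Among the 10 cholinergic genes adult replicate 1 was the higher adult library for 8, with a median ratio of 1.33. Neonate replicate 1 also stood apart from neonate replicate 2. Parathyroid markers summed to 1616 and 197 CPM in these libraries and were under the floor in both adult libraries, erythroid markers summed to 11644 and 6860 CPM, and glial markers to 1297 and 2577 CPM. Results that changed without a single library are therefore given with that value.

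The level of 3 of the 10 genes, Chrna7, Chrnb2 and Chrm2, was higher in adults by at least 2-fold with an adjusted p under 0.05, and none was higher in neonates by this rule. Of all 13843 genes tested, 13.2% were called toward adults and 7.68% toward neonates by the same rule. At an adjusted p under 0.05 without a minimum fold change, Ache was also higher in adults and Chrna4 was higher in neonates, against a background of 31.1% of all genes toward adults, 31.2% toward neonates and 62.3% in either direction. Chrna3, Chrnb4, Slc18a3 and Slc5a7 did not pass the test, and Chat was under 1 CPM in every library and was not tested. Without adult replicate 2, the log2 fold changes of Ache and Slc18a3 were -1.02 and -1.16, beyond 2-fold toward adults. That of Chrna4 was 1.02 without adult replicate 2 and 1.06 without neonate replicate 2, beyond 2-fold toward neonates. These values are given here for size alone and not as calls, since each such fit left 1 library at an age. Chrnb2 and Chrm2 reached 1 CPM in adult libraries only, so they had to differ in order to be tested, and the count of genes called is a description. The median log2 fold change was -0.72 over the 9 genes tested and -0.32 over the 7 that reached 1 CPM at both ages, beside -0.0029 for all genes tested. In CPM, the ages did not overlap for 9 of the 10 genes, 8 of them higher in adults and 1 in neonates. Of all genes, 83.1% did not overlap, 55.3% being higher in adults and 27.9% in neonates. After TMM normalization 6 were higher in adults without overlap, 1 was higher in neonates and 3 overlapped, against 41.7% of all genes toward adults, 41.3% toward neonates and 82.9% in either direction.

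**Figure D1:**
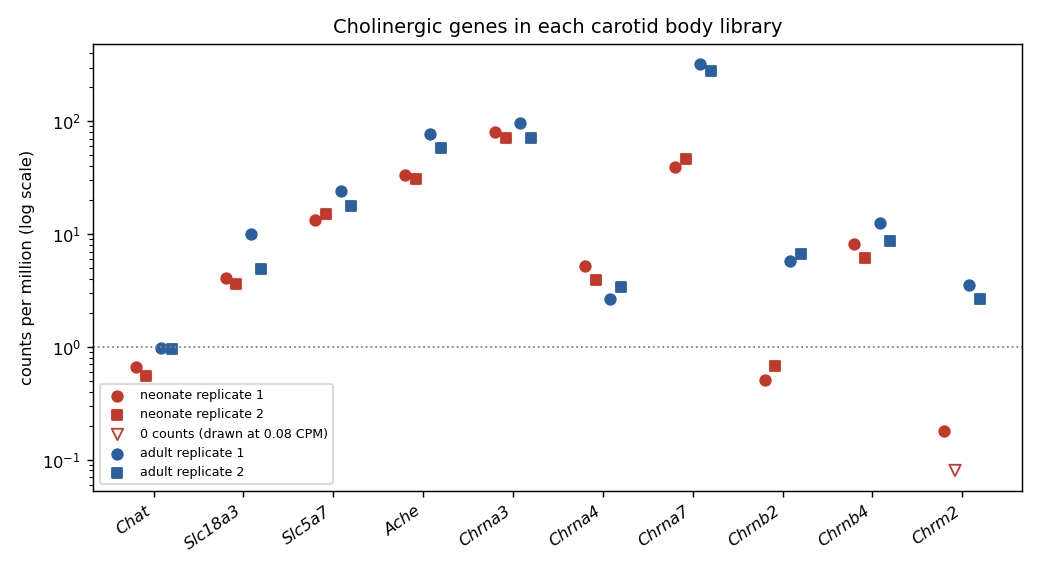
CPM of the 10 cholinergic genes (log axis) in each of the 4 libraries, with neonates in red and adults in blue, circles for replicate 1 and squares for replicate 2, and a dotted line at 1 CPM. The adult points of Chrna7, Chrnb2 and Chrm2 lie far above the neonatal points, whereas those of Chrna3 overlap, and the open triangle marks the library with 0 counts of Chrm2.

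Chrna7 (ENSRNOG00000010853) showed the change with the most counts behind it. Its level was 39.4 and 46.7 CPM in neonate replicates 1 and 2 and 321 and 279 CPM in adult replicates 1 and 2. Both adult libraries lay far above both neonatal libraries. The means were 43.1 ± 5.15 CPM in neonates and 299.5 ± 29.7 CPM in adults (SD, n = 2 each). Chrna7 was 5.87-fold higher in adults, with -2.55 ± 0.11 on the log2 scale (edgeR, adjusted p = 1.4e-06). Counted from the largest change toward adults, it was the gene at place 189 of 13843. Leaving out each library in turn gave log2 fold changes from -2.66 to -2.44, and the value without neonate replicate 1 was -2.46.

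The sequences before the annotated starts of 3 nicotinic subunit genes are shown to set the subunits that rose with age beside Chrna3, which did not pass the test. They are the 250 bases upstream of the RefSeq start in the assembly GRCr8, which is not the assembly the reads were mapped to, and capitals mark the E-box letters CANNTG and the GC box letters GGGCGG on either strand. The windows are chr1:126249130-126249379 for Chrna7, chr2:177487307-177487556 for Chrnb2 and chr8:64311252-64311501 for Chrna3, each on the minus strand.
Chrna7: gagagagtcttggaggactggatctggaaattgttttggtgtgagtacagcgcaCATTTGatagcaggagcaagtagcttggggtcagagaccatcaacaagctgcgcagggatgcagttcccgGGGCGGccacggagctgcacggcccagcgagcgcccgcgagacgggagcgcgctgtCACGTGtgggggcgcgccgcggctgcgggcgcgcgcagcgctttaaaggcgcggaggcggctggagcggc
Chrnb2: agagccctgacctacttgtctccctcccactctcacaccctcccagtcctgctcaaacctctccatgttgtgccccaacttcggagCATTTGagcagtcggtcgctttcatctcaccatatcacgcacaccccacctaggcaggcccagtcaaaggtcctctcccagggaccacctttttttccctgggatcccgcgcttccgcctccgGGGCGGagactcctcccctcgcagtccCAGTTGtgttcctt
Chrna3: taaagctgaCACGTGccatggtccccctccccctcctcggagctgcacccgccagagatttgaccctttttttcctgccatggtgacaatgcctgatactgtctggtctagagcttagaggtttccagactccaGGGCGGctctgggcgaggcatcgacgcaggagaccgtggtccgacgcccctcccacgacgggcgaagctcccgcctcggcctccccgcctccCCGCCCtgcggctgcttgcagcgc

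Windows of the same length were found for all 10 cholinergic genes. At least 1 GC box, in either orientation, was present in 9 of the 10, against 30.5% of the 33469 windows in the RefSeq table, which also holds non-coding genes. An E-box, whose letters read the same on both strands, was present in 8 of the 10, against 65.5% of all windows. The homeodomain core TAAT was found in 2 of the 10, against 57.0% of all windows, and the cAMP response element TGACGTCA in 0 of the 10, against 1.59%. The E-box letters occurred 2 times each upstream of Chrna7 and of Chrnb2 and 1 time upstream of Chrna3, and the GC box letters 1 time each upstream of Chrna7 and Chrnb2 and 2 times upstream of Chrna3. These are matches of letters, not binding sites.

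**Figure D2:**
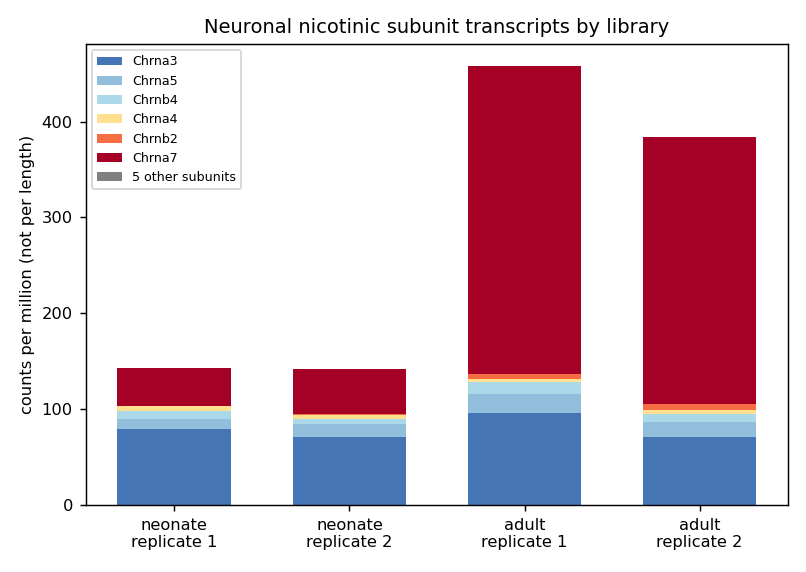
Stacked bars of the CPM of neuronal nicotinic subunit genes in each library, starting at 0 and without a correction for length. The Chrna3 segment has a like height at both ages, while the Chrna7 segment takes 27.5% and 32.9% of the bar in neonates and 70.0% and 72.5% in adults.

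The 11 genes for neuronal nicotinic subunits together took 143.6 and 141.9 CPM in neonates and 458 and 384 CPM in adults. Chrna7 took 27.5% of these counts in neonate replicate 1 (95% exact Clopper-Pearson interval 26.3% to 28.7%) and 32.9% in neonate replicate 2 (31.7% to 34.2%). It took 70.0% in adult replicate 1 (69.3% to 70.7%) and 72.5% in adult replicate 2 (71.8% to 73.2%). The share rose between ages by more than it varied between libraries of an age, and the intervals cover counting error only. For each count of Chrna3 there were 0.494 and 0.653 counts of Chrna7 in neonates and 3.32 and 3.90 in adults, a ratio that does not depend on how the libraries were scaled.

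Chrnb2 (ENSRNOG00000020778), the beta subunit that joins Chrna4 in the common receptor of the brain, had 0.507 and 0.675 CPM in neonates and 5.82 and 6.70 CPM in adults. The neonatal values rest on 20 and 26 counts, above the floor, and the adult values on 220 and 243. It was 8.91-fold higher in adults, with -3.16 ± 0.32 on the log2 scale (edgeR, adjusted p = 5.1e-05). With single libraries left out the log2 fold change ran from -3.34 to -2.99.

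Chrna4 (ENSRNOG00000011202) moved the other way. It had 5.17 and 3.95 CPM in neonates and 2.65 and 3.36 CPM in adults, with both neonatal libraries above both adult libraries and a narrow gap between the nearest values. It was 1.80-fold higher in neonates, with 0.85 ± 0.29 on the log2 scale (edgeR, adjusted p = 0.028). The log2 fold change of Chrna4 stayed above 0 but lost its call in edgeR's test without neonate replicate 1 (0.62, adjusted p = 0.10), without adult replicate 1 (0.70, adjusted p = 0.17) and without adult replicate 2 (1.02, adjusted p = 0.064). It was 1.06 (adjusted p = 0.0069) without neonate replicate 2 and 0.60 (adjusted p = 0.094) scaled to library size alone. For each count of Chrna4 there were 0.0980 and 0.171 counts of Chrnb2 in neonates and 2.20 and 1.99 in adults.

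The genes of the ganglionic receptor lie next to each other in the order Chrna5, Chrna3, Chrnb4 in the RefSeq gene table. Chrna3 (ENSRNOG00000013829) had 79.9 and 71.5 CPM in neonates and 96.6 and 71.3 CPM in adults, and the ages overlapped. Its log2 fold change was 0.096 (SE 0.14, 95% interval -0.23 to 0.42, edgeR adjusted p = 0.57), and its sign was negative scaled to library size alone, at -0.15. It was 0.34 without adult replicate 1, with an adjusted p of 0.038 in edgeR's test.

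Chrnb4 (ENSRNOG00000014427) had 8.21 and 6.08 CPM in neonates and 12.4 and 8.71 CPM in adults, with a log2 fold change of -0.32 (95% interval -0.88 to 0.24, edgeR adjusted p = 0.29). It was -0.58 without neonate replicate 1, -0.086 without neonate replicate 2, -0.026 without adult replicate 1 and -0.56 without adult replicate 2, none of them past the test. The CPM values of the ages did not overlap, but they did after TMM normalization. For each count of Chrna3 there were 0.103 and 0.0849 counts of Chrnb4 in neonates and 0.128 and 0.122 in adults. Chrna5, an accessory subunit that was not among the 10 genes, had 9.96 and 12.8 CPM in neonates and 19.7 and 15.5 CPM in adults, with a log2 fold change of -0.39 (95% interval -0.78 to 0.0073, edgeR adjusted p = 0.080). None of these adjacent genes passed the test with all 4 libraries.

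Chrm2 (ENSRNOG00000046972), a muscarinic receptor that inhibits adenylyl cyclase, had 0.177 CPM (7 counts) in neonate replicate 1 and 0 counts in neonate replicate 2. In adult replicates 1 and 2 it had 3.52 and 2.65 CPM, from 133 and 96 counts. The count of 0 allows up to 0.0779 CPM in that library. From the summed counts of each age, the CPM was 34.4 times as high in adults, with a 95% exact interval of 16.4 to 86.6 for counting error alone. The test gave an adjusted p of 0.00052 with all libraries in edgeR's test. The SE for this gene was larger in DESeq2, at 1.82. In edgeR the log2 fold change was -4.81 ± 0.74. It was -9.79 without neonate replicate 1, where the neonatal side is the library at 0 counts and the fitted value depends on the prior count, and -3.82 without neonate replicate 2.

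Ache (ENSRNOG00000050841) had 33.6 and 31.0 CPM in neonates and 76.9 and 58.2 CPM in adults, without overlap between ages. It was 1.77-fold higher in adults, with -0.82 ± 0.14 on the log2 scale (edgeR, adjusted p = 0.00092). It ran from -1.02 to -0.59 with single libraries left out. Relative to the glomus cell markers, a scaling chosen after the data had been seen, it was -0.46 (edgeR adjusted p = 0.073).

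The genes that mark a cell as cholinergic were low or did not pass the test. Chat (ENSRNOG00000025012) had 0.659 and 0.545 CPM in neonates and 0.979 and 0.965 CPM in adults, from 26, 21, 37 and 35 counts. Each library was above the floor and under the 1 CPM needed for the test. Without a filter on low counts its log2 fold change was -0.47 (SE 0.52, edgeR adjusted p = 0.51).

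Slc18a3 (ENSRNOG00000062141), which lies within the Chat gene in the RefSeq table, had 4.10 and 3.58 CPM in neonates and 10.1 and 4.91 CPM in adults. The wide spread was between the adult libraries, which differed by 2.06 times. The log2 fold change was -0.72 (95% interval -1.50 to 0.052, edgeR adjusted p = 0.094). Without adult replicate 2 it was -1.16 (adjusted p = 0.012) and without adult replicate 1 it was -0.094 (edgeR adjusted p = 0.86), so the size of the difference depended on which adult library was used. Slc18a3 also passed scaled to library size alone, at -0.97 (edgeR adjusted p = 0.034), and with the replicate number as a block, at -0.64 (edgeR adjusted p = 0.044). For each count of Chat there were 6.23 and 6.57 counts of Slc18a3 in neonates and 10.3 and 5.09 in adults, so that the adult libraries lay on either side of the neonatal ones. Reads from any sequence that Chat and Slc18a3 share cannot be told apart, and a division of such reads is that of the authors' quantification. Neither gene had fractional counts in any library.

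Slc5a7 (ENSRNOG00000010597) had 13.2 and 15.0 CPM in neonates and 23.9 and 17.8 CPM in adults. The log2 fold change was -0.32 (95% interval -0.68 to 0.047, edgeR adjusted p = 0.11). Scaled to library size alone it was -0.56, with an adjusted p of 0.015 in edgeR's test, and without adult replicate 2 it was -0.52, with an adjusted p of 0.020. Without adult replicate 1 it was -0.077 (edgeR adjusted p = 0.74), so the size of the Slc5a7 difference depended on the adult library used.

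**Figure D3:**
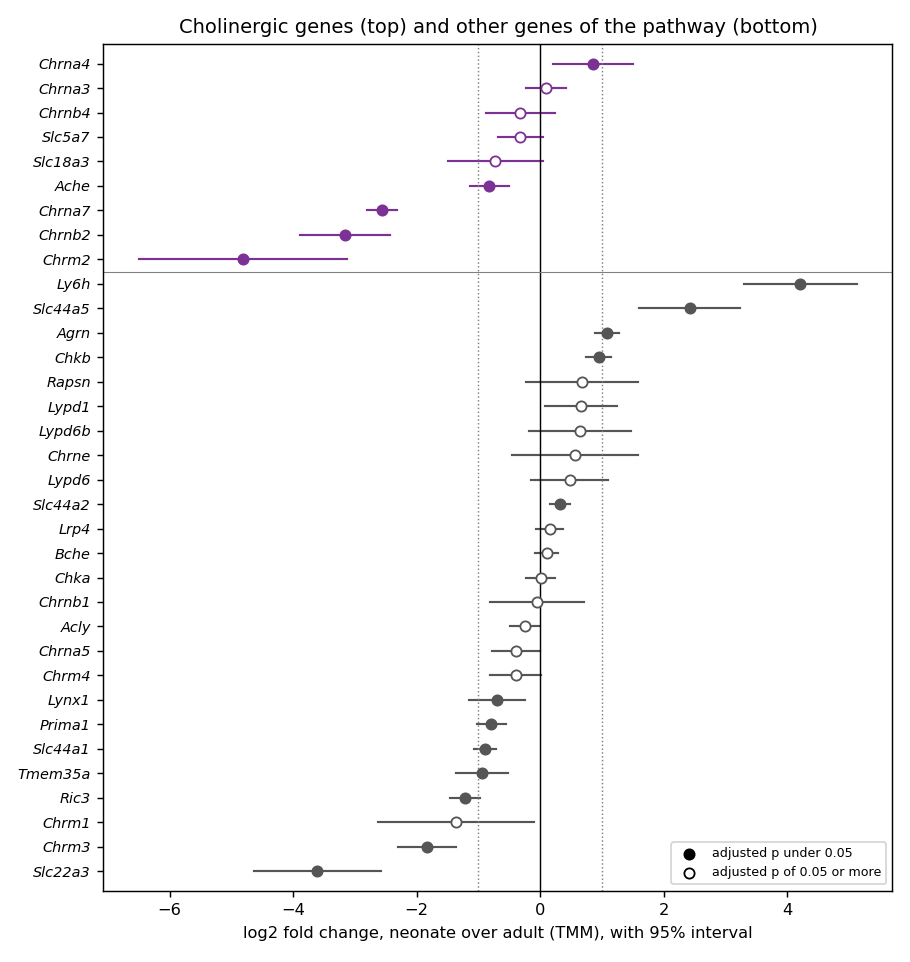
Log2 fold changes of neonate over adult with 95% intervals for the 9 cholinergic genes tested (upper block) and the 25 other genes of the pathway tested (lower block), filled where the adjusted p was under 0.05, with dotted lines at a fold change of 2. Chrm2, Chrnb2 and Chrna7 lie left of the dotted line, and Ly6h lies farthest to the right.

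Other genes of cholinergic signalling were taken from a list of 41 chosen for their role, of which 25 were tested. At an adjusted p under 0.05 and 2-fold, 3 were higher in adults and 3 in neonates. Of all genes, 13.2% and 7.68% were called in these directions. Scaled to library size alone, 7 were called toward adults and 2 toward neonates, where 2550 and 704 of all genes were. Among the genes called with TMM, Ly6h, Slc44a5 and Slc22a3 reached 1 CPM at a single age. They had to differ in order to be tested, so the count of pathway genes called is a description. Without the minimum fold change, 7 were higher in adults and 5 in neonates, and 13 did not pass, whereas 62.3% of all genes passed in either direction. Their median log2 fold change was 0.0081.

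Among the chaperones and modulators of nicotinic receptors, 3 of the 7 tested were higher in adults and 1 in neonates at an adjusted p under 0.05, where 31.1% and 31.2% of all genes were. Ric3, an endoplasmic reticulum chaperone that helps Chrna7 and other subunits to assemble, had 21.2 and 24.7 CPM in neonates and 66.2 and 59.8 CPM in adults. It was 2.32-fold higher in adults (log2 fold change -1.21 ± 0.10, edgeR adjusted p = 2.4e-05). Tmem35a, also known as NACHO and likewise a chaperone for nicotinic receptors, had 42.7 and 30.0 CPM against 94.0 and 71.5 CPM, and is named because of its value. Its log2 fold change was -0.94 (SE 0.19, edgeR adjusted p = 0.0021).

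Ly6h, a membrane-anchored protein that limits Chrna7 at the cell surface, went the other way. It had 8.23 and 9.63 CPM in neonates and 0.821 and 0.303 CPM in adults, and reached 1 CPM in neonates only. It was 18.6-fold higher in neonates (log2 fold change 4.22 ± 0.40, edgeR adjusted p = 3.8e-05). Lynx1, a related modulator named because of its value, was higher in adults at a log2 fold change of -0.70 (edgeR adjusted p = 0.014), and the other 3 genes of the group did not pass.

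Prima1, the membrane anchor of acetylcholinesterase in nervous tissue, had 15.4 and 14.9 CPM in neonates and 30.6 and 31.4 CPM in adults. Its log2 fold change was -0.79 (SE 0.11, edgeR adjusted p = 0.00023), close in size to that of Ache, and Prima1 is named because of its value. Bche, the related butyrylcholinesterase, is given for comparison. It had 77.6 and 86.0 CPM against 88.1 and 92.0 CPM and did not pass (log2 fold change 0.11, edgeR adjusted p = 0.27).

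Among the muscarinic receptors other than Chrm2, Chrm3, which couples to phospholipase C, had 2.99 and 3.45 CPM in neonates and 14.6 and 12.6 CPM in adults. It was 3.57-fold higher in adults (log2 fold change -1.84 ± 0.21, edgeR adjusted p = 9.0e-05). Chrm4, like Chrm2 an inhibitor of adenylyl cyclase, had 7.95 and 9.40 CPM against 15.0 and 12.0 CPM and did not pass (log2 fold change -0.39, adjusted p = 0.088). Chrm1 had 0.684 and 0.208 CPM against 1.51 and 1.24 CPM, with an adjusted p of 0.058, and Chrm5 had 0 counts in both neonatal libraries and 7 and 2 in adults.

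Choline carriers moved in both directions. Slc44a1, a choline transporter found in most cells, had 120.8 and 129.5 CPM in neonates and 264 and 287 CPM in adults (log2 fold change -0.89, edgeR adjusted p = 2.6e-05), and is named because of its value. Slc22a3, an organic cation transporter, had 0.329 and 0.208 CPM against 2.96 and 4.91 CPM and was 12.2-fold higher in adults. Slc44a5, of the same family as Slc44a1, was 5.36-fold higher in neonates, with 4.03 and 2.93 CPM against 0.741 and 0.799 CPM. Adjusted p of these carriers were 0.00017 and 0.00044 in the same test, and each reached 1 CPM at a single age.

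Of the neuronal subunits not yet described, Chrna6 had 0 counts in all 4 libraries, and Chrna2, Chrna9 and Chrnb3 had at most 2 counts in any library. Chrna10 had 10 and 5 counts in neonates and 5 and 0 in adults. Of the muscle subunits, Chrna1 had between 3 and 10 counts and Chrnd at most 2. Well above the floor, Chrnb1 had between 1.52 and 2.37 CPM and Chrne between 1.06 and 2.41 CPM. Neither Chrnb1 nor Chrne passed the test. Agrn, a matrix protein that clusters receptors at the neuromuscular junction and is also made in vessels and nerve, was 2.11-fold higher in neonates (log2 fold change 1.08 ± 0.086, edgeR adjusted p = 1.6e-05).

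**Figure D4:**
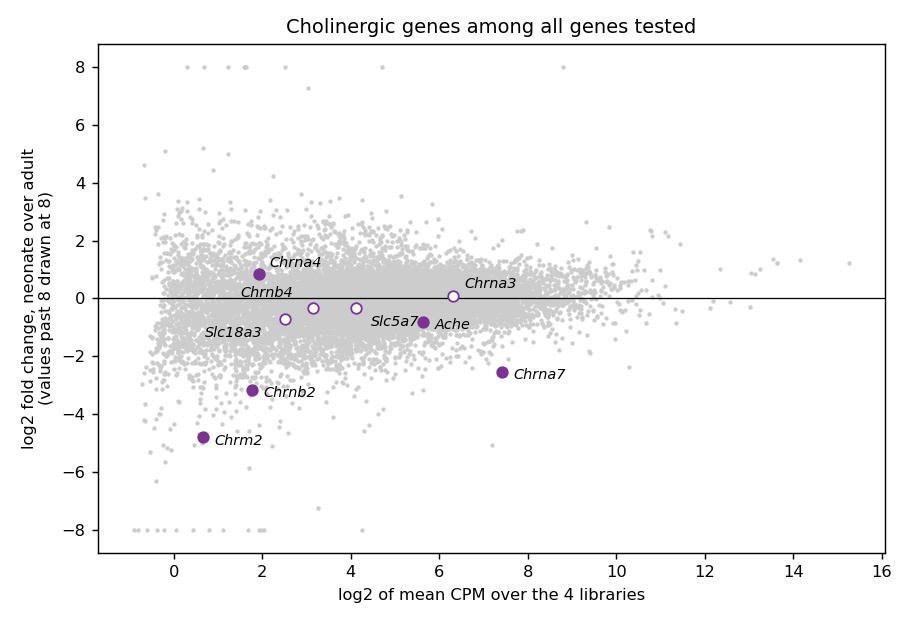
Log2 fold change of neonate over adult against the log2 of the mean CPM for all 13843 genes tested (grey), with the 9 cholinergic genes tested in purple, filled where the adjusted p was under 0.05. Chrna7 lies at the lower edge of the genes of its level, and Chrna3, Slc5a7, Chrnb4 and Slc18a3 lie within the mass of genes.

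Genes with a profile over the 4 libraries most like that of a cholinergic gene were found as the smallest distances between centred log2 CPM, among genes of a like mean level. For Chrm2, the gene called with the largest change, these were Pcdha4 (distance 0.23), Slc24a2 (0.73) and Ifit1 (0.75) of 499 genes compared. For Chrna7, chosen for this after its values had been seen, they were Fstl5 (0.36), C1s (0.42) and Dpysl3 (0.49) of 3192 genes. With 2 libraries per age these distances mostly reflect the size of the difference between ages.

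The levels of whole organs cannot tell apart fewer cells of a type from less RNA per cell, and markers of cell types that can carry these genes are therefore given beside them. Of 12 glomus cell markers, 4 were higher in neonates, 4 were higher in adults and 4 did not pass an adjusted p of 0.05, shares close to the 31.2% and 31.1% of all genes in these directions. Th, the rate-limiting enzyme of dopamine synthesis and the first gene of the list, had 917 and 781 CPM in neonates and 1517 and 1242 CPM in adults (log2 fold change -0.45, edgeR adjusted p = 0.016). Scaled to the 12 glomus cell markers, which moved the median of all genes to 0.34, Chrna7 was at -2.19, Chrnb2 at -2.81 and Chrm2 at -4.48, all 3 still called. For each count of Ddc there were 0.0273 and 0.0346 counts of Chrna7 in neonates and 0.207 and 0.202 in adults, while the same ratio for Chrna3 was 0.0553 and 0.0529 in neonates and 0.0625 and 0.0517 in adults.

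**Figure D5:**
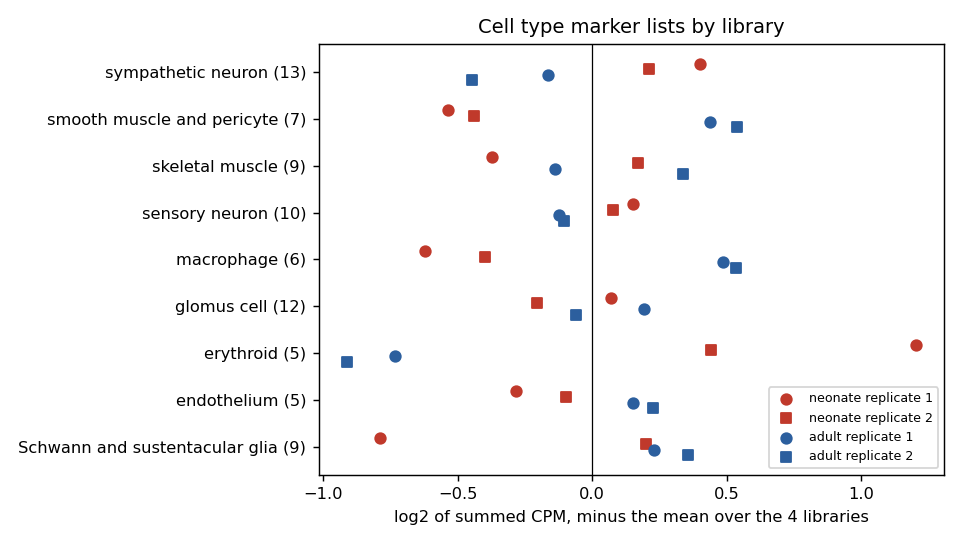
Summed CPM of each cell type marker list in each library, as log2 and relative to the mean over the 4 libraries, with the number of genes in parentheses, neonates in red, adults in blue, circles for replicate 1 and squares for replicate 2. Sympathetic neuron and erythroid lists lie higher in neonates and macrophage and smooth muscle lists higher in adults, and parathyroid markers are left out because they were under the floor in adults.

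Sympathetic neurons, which carry Chrna3 and Chrnb4, lie close to the CB in the superior cervical ganglion. Of their 13 markers, 11 were higher in neonates and none in adults at an adjusted p under 0.05, the threshold that 31.2% of all genes passed toward neonates and 31.1% toward adults. The list summed to 2330 and 2039 CPM in neonates and to 1572 and 1293 CPM in adults. The marker with the most counts in each library, the filament protein Prph, had 536 and 475 CPM in neonates and 423 and 361 CPM in adults. Sensory neuron markers summed to between 22.9 and 27.7 CPM in all libraries, with P2rx2 taking the most counts in 3 of the 4, Prdm12 at 0 counts in all 4 and Pou4f1 at 0 counts in 3 of 4. Their part in the levels of Chrna3, Chrnb4 and Chrna4 was not tested.

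Macrophages and vessel walls also express nicotinic and muscarinic receptors. The 6 macrophage markers summed to 58.7 and 68.5 CPM in neonates and to 127 and 131 CPM in adults, with Csf1r taking the most counts in adults and Mrc1 in neonates. At an adjusted p under 0.05, 5 of them were higher in adults, against 31.1% of all genes. The 7 markers of smooth muscle and pericytes summed to 1099 and 1178 CPM in neonates and to 2160 and 2315 CPM in adults, with Rgs5 taking the most counts in adults and Pdgfrb in neonates. By the same threshold 4 were higher in adults and 1 in neonates. Endothelial markers summed to 633 and 720 CPM against 856 and 900.2 CPM, with Cdh5 taking the most counts in 3 of the 4 libraries, and glial markers to 1297 and 2577 CPM against 2633 and 2873 CPM. The 9 skeletal muscle markers summed to between 16.2 and 26.5 CPM in each library, with Tnnt3 taking the most counts in 3 of the 4. Erythroid markers, with Hba-a1 taking the most counts in each library, were higher in neonates for 5 of 5, against 31.2% of all genes. The part of these cell types in the levels of Chrna7, Chrnb2, Chrm2 and Ache was not tested.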

How the data were processed

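Libraries of poly A+ RNA from pooled CBs were sequenced, 2 per age. The authors trimmed the reads, mapped them to Rnor_6.0 with STAR and quantified them with Salmon (1.5.2 in the submitters' processing notes), and deposited estimated counts per gene without normalization, a filter or pooling. Counts were rounded and analysed with edgeR 4.0.16 in R 4.3.3 (quasi-likelihood test, TMM, Benjamini-Hochberg adjustment). The genes tested reached 1 CPM in 2 or more libraries, after 636 genes not annotated as protein-coding in RefSeq GRCr8 were removed by symbol. A further 13665 genes of the count table had no biotype by symbol and were not removed. The genes tested are therefore not all known to be protein-coding. Genes were called at 2-fold or more with an adjusted p under 0.05, the threshold in the paper's methods on functional annotation. For its count of changed genes the paper names a t-test and a p-value of at most 0.05, at the same fold change. The smallest two-sided p of an exact permutation test with 2 libraries against 2 is 0.333, so single genes were not tested in that way. Replicates differed beyond sampling noise (chi-square per degree of freedom of 36.7 in neonates and 17.1 in adults). The p-values rest on the spread between these pools, which edgeR moderates for each gene toward a spread shared across all genes.

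The members and lists were chosen with earlier results of these data known. Named were all 10 members, the pathway genes called at 2-fold, the other nicotinic and muscarinic receptor genes of that list, the leading, first-listed or undetected genes of marker lists, and genes said to be named for their values. Bche was also chosen after its values were seen. Some marker genes are not reported here. Alternatives were DESeq2 1.42.0, limma-voom (limma 3.58.1), other scalings and filters, no minimum fold change, a replicate block and each library left out. On simulated data of 13843 genes, 199 of 200 changed genes passed with the right sign, and so did 8 unchanged genes. Levels per length and protein sequences were not analysed here.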

Additional observations from a re-analysis of the deposited data

How the results depend on the processing

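Chrna7, Chrnb2 and Chrm2 kept their direction and an adjusted p under 0.05 in every alternative in which they were tested, 14 for Chrna7 and 13 each for Chrnb2 and Chrm2, with log2 fold changes from -2.80 to -2.19, from -3.40 to -2.81 and from -9.79 to -3.82. Of the other genes, Chrna3 changed sign, to -0.15 scaled to library size alone, -0.012 without neonate replicate 1 and -0.11 without adult replicate 2 (0.34 without adult replicate 1). Relative to the 12 glomus cell markers, an alternative chosen after the data had been seen, Slc5a7 was at 0.052 and Chrnb4 at 0.038. The causes were not tested. With a mean of at least 5 CPM, which left Chrna4, Chrnb2 and Chrm2 untested, 1 cholinergic gene was called toward adults, 1 pathway gene toward neonates, and 654 and 1169 of all genes toward neonates and adults, where the main counts were 1063 and 1822. Scaled to library size alone, which moved the median of all genes to -0.25, 704 and 2550 of all genes, 0 and 4 cholinergic genes (Ache being the fourth, at -1.07) and 2 and 7 pathway genes were called toward neonates and adults. Relative to the glomus cell markers, 1 cholinergic gene (Chrna4), 5 pathway genes and 2260 genes in all were called toward neonates and 1143 in all toward adults. Without a minimum fold change 1 cholinergic gene, 5 pathway genes and 4325 genes in all were called toward neonates, and 7 pathway genes and 4300 in all toward adults. With each library left out in turn, cholinergic genes called ran from 0 to 1 toward neonates and from 3 to 5 toward adults, pathway genes from 3 to 4 and from 3 to 5, and all genes from 972 to 1169 and from 1519 to 1911.

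Replicate numbers are shared by the ages in the labels, but nothing says that they mark a litter or a batch, and the deviations of same-numbered libraries correlated at -0.015 across genes. With the replicate number as a block, Slc18a3 passed, at -0.64 (adjusted p = 0.044 in edgeR's test), and 0 and 3 cholinergic genes, 3 and 4 pathway genes and 1071 and 1866 of all genes were called toward neonates and adults. No other cholinergic gene changed its call under the block. Levels per kilobase were not run, since no transcript lengths were at hand. At this depth the 0 counts of Chrm2 in neonate replicate 2 and of Chrna6 in all libraries limit those levels only to under the floor.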
